A study of Mus musculus with 12 samples.

Results

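Diacylglycerol kinases and the proteins that act on diacylglycerol were followed in natural killer (NK) cells of mice lacking or carrying the microRNA miR-142. The set held 10 of the 19938 genes that had a probe set naming 1 symbol. It comprised the phospholipases C gamma that make diacylglycerol (Plcg1, Plcg2), the kinases that remove it (Dgka, Dgkz, Dgkd, Dgkh), the RasGRP exchange factors of Ras and Rap (Rasgrp1, Rasgrp2) and the protein kinases C that it switches on (Prkcq, Prkch). Each gene was represented by 1 probe set, that of the highest mean signal. The genes were chosen with their differences between genotypes already known, so the differences and adjusted p-values below describe them and are not independent evidence.

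In lymphocytes, an engaged activating receptor turns on phospholipase C gamma, which splits a membrane phosphoinositide into inositol trisphosphate, a releaser of stored calcium, and diacylglycerol. Diacylglycerol stays in the membrane, where it recruits RasGRP proteins, Rasgrp1's product above all, to Ras and activates protein kinase C, and the branches lead to the ERK kinases and to NF-kappaB. Diacylglycerol kinases convert the lipid to phosphatidic acid and so end its signal. In mouse T cells the alpha and zeta kinases, encoded by Dgka and Dgkz, are known as brakes on activation, as is the zeta kinase in NK cells.

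The cells were CD3- NK1.1+ cells sorted from C57BL6 mice of 7 to 10 weeks whose age and sex were matched. The groups were miR142 KO bone marrow, miR142 WT bone marrow, miR142 KO spleen and miR142 WT spleen, with 3 arrays each that the labels call biological replicates. How the KO allele was made, whether it acts in all cells of the mouse, and how many mice stand behind an array is not stated in the labels. The study asked which genes differ between the genotypes in a way that might bear on the KO phenotype.

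Values are log2 signals from Affymetrix arrays, on which a difference of 1 is a 2-fold change. Levels of different genes come from different probes and are not set against each other. A gene was tested when its mean signal exceeded 5.49, the 40th percentile of all genes, which left 11963 genes and all 10 members. A call required a p under 0.05 after Benjamini-Hochberg adjustment, in a limma model of all 12 arrays.

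The genotype is named for miR-142, whose hairpin gives a mature strand from each arm. How much of its locus the KO removes is not stated in the labels. The strands are shown because the genotype is named for them, with the seed, bases 2 to 8, in capitals. Both lie on the plus strand of chromosome 11 in RefSeq for GRCm38.p6, at chr11:87756867-87756887 for the 5p strand and chr11:87756903-87756925 for the 3p strand. Their seeds differ, so they form separate target families.
mmu-miR-142a-5p: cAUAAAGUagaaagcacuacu
mmu-miR-142a-3p: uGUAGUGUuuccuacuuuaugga

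The array's Mir142 probe set followed the labels. It read 4.69, 4.70 and 4.26 in KO bone marrow, against 7.10, 8.25 and 7.14 in WT bone marrow, and 4.05, 4.59 and 4.50 in KO spleen, against 6.77, 7.17 and 7.58 in WT spleen. The 9 NK cell markers were all above the filter, and their mean lay between 11.49 and 11.92 on every array. Of the 9, 2 were called higher in KO over both tissues and 0 in either tissue alone. Within a group the arrays correlated at 0.968 to 0.986 over genes, and between groups at 0.928 to 0.979. By sample number the arrays form 2 consecutive runs, a term of the model, with 7 arrays in the first and 5 in the second. The second run held no KO bone marrow array. In the first, bone marrow had 3 KO arrays and 1 WT array (array 1), and spleen 1 KO and 2 WT arrays. In the second, spleen had 2 KO arrays and 1 WT array. Each comparison within a run thus has a single array on 1 side. Without WT bone marrow array 1, genotype and run coincide in bone marrow. The bone marrow difference then depends on a run term set by the spleen arrays.

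Genes listed as markers of other cells also differed between groups. Of 10 T cell markers, 7 passed the filter, and 4 were lower in KO bone marrow than in WT bone marrow and 2 lower in KO spleen than in WT spleen. The mean of the T cell list was 5.94 to 6.13 in KO bone marrow, 6.59 to 6.72 in WT bone marrow, 5.89 to 6.17 in KO spleen and 6.11 to 6.25 in WT spleen. Cd4, Cd8b1 and Trat1 stayed below the filter. Of 11 granulocyte markers, 7 passed the filter and 4 were lower in KO bone marrow, where the list mean was 5.76 to 6.45, against 7.02 to 7.26 in WT bone marrow. The granulocyte mean was 5.65 to 6.19 in KO spleen and 5.08 to 5.68 in WT spleen, and 1 marker was higher in KO there. A list of 9 markers of type 1 innate lymphoid cells and tissue residency averaged 8.52 to 8.88 in KO bone marrow, 6.56 to 6.77 in WT bone marrow, 8.52 to 8.61 in KO spleen and 6.10 to 6.52 in WT spleen. Of its 8 tested genes, 7 were higher in KO in each tissue. The other 1, Il7r, was not called in either tissue and was lower over both. Of 10 dendritic cell markers, 5 passed the filter, and 1 was higher in KO bone marrow and 4 higher in KO spleen. Itgax, of those 5, averaged 10.93 over all arrays, while Siglech, Flt3, Xcr1, Clec9a and Cd209a stayed below the filter. The mean of that list was 6.42 to 6.49 in KO bone marrow, 5.85 to 6.09 in WT bone marrow, 6.58 to 6.65 in KO spleen and 5.84 to 6.21 in WT spleen. Of 6 monocyte and macrophage markers on the array, the 2 that passed the filter (Ccr2 and Ms4a6c) were lower in KO spleen and not called in bone marrow. Ccr2 averaged 10.73 over all arrays, while Csf1r, Cd14, Adgre1 and Fcgr1 stayed below the filter. The list averaged 6.29 to 6.36 in KO bone marrow, 6.44 to 6.47 in WT bone marrow, 6.06 to 6.13 in KO spleen and 6.53 to 6.66 in WT spleen. Of 4 tested progenitor markers, 2 were higher and 1 lower in KO in each tissue, and no tested B cell, erythroid or platelet marker was called between the genotypes. Whether the RNA of these listed genes came from NK cells or from other cells was not tested, nor was their part in the results below. In sorted bulk samples, fewer cells of a type and less RNA per cell cannot be told apart.

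Of the 10 members, 3 were called in bone marrow, where 8.65% of all tested genes were called. All 3 were lower in KO (Dgka, Rasgrp2 and Prkcq), against 4.73% of all genes called lower there. In spleen 6 were called, against 9.11% of all genes. Dgka, Rasgrp2 and Prkcq were again lower in KO, a direction in which 3.63% of all genes were called, and Prkch, Rasgrp1 and Plcg2 were higher, a direction in which 5.48% were called. Over both tissues 5 members were called, against 19.1% of all genes. These were Dgka, Rasgrp2 and Prkcq, lower as were 10.3% of all genes, and Prkch and Dgkh, higher as were 8.81%. The arrays of KO and WT did not overlap for 7 members in bone marrow, against 34.2% of all tested genes, and for 7 in spleen, against 28%. Scaling the arrays again moved the split of all genes in bone marrow: 469 were higher and 566 lower as deposited, 539 and 379 after another quantile normalization, and 403 and 668 after centring each array on its median. The median difference of all genes stayed within 0.1 of 0 under each scaling.

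**Figure D1:**
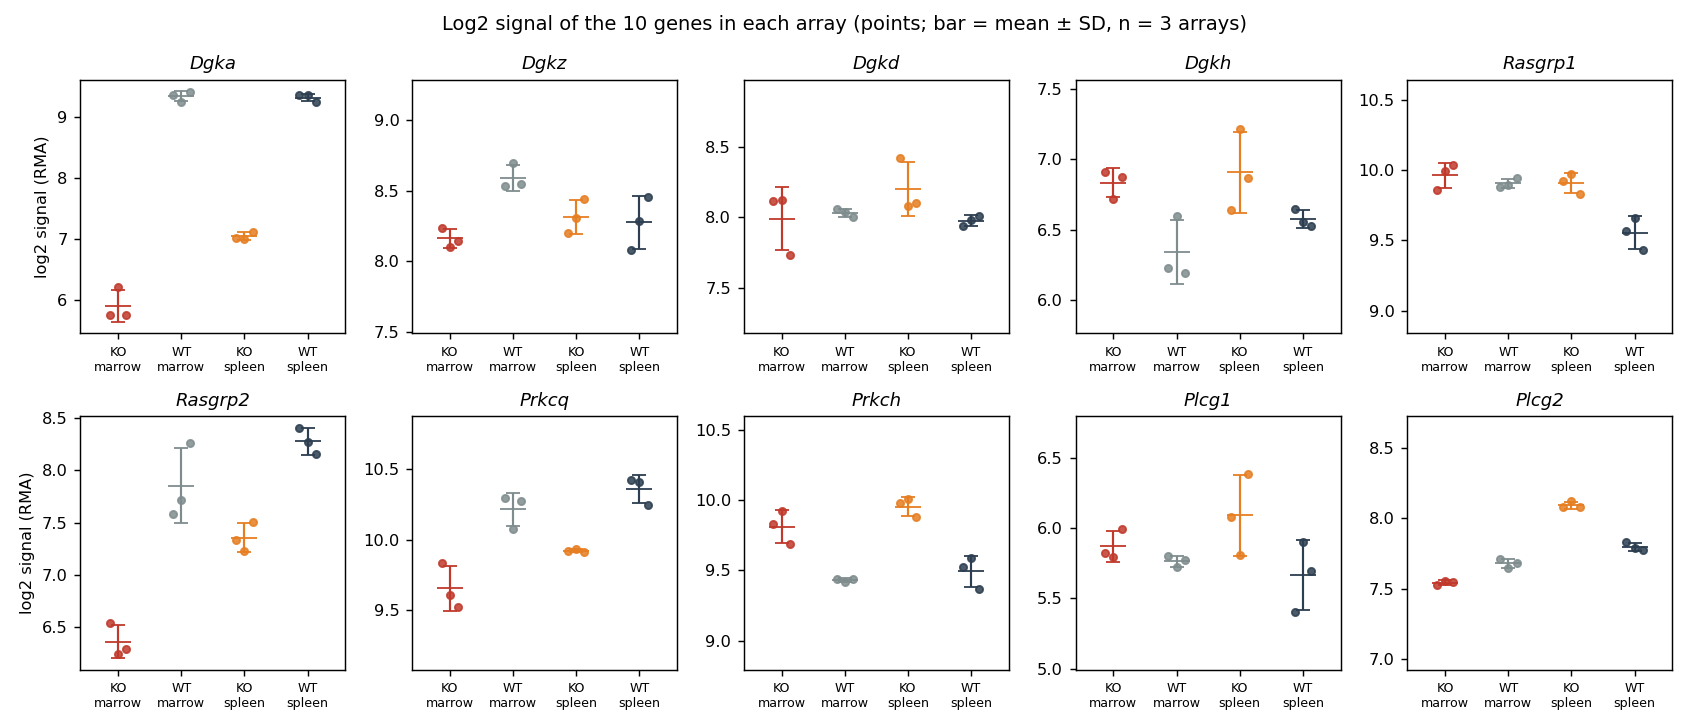
Log2 signal of the 10 genes (vertical axis) in each array of the 4 groups; points are arrays and bars are means ± SD (n = 3). Dgka, Rasgrp2 and Prkcq lie lower in both KO groups than in the WT groups, and the 3 KO arrays of Plcg2 lie below WT in bone marrow and above WT in spleen.

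Dgka, which encodes the calcium-responsive alpha kinase, differed most. Its probe set (10373542) read 5.76, 6.21 and 5.76 in KO bone marrow, against 9.35, 9.25 and 9.41 in WT bone marrow. In spleen it read 7.01, 7.00 and 7.11 in KO, against 9.35, 9.35 and 9.24 in WT. The 6 WT arrays of both tissues thus overlapped, while every KO array lay below every WT array and every KO bone marrow array below every KO spleen array. The fitted difference, KO minus WT, was -3.48 ± 0.14 (SE) in bone marrow, an 11.2-fold fall with an adjusted p of 1.2e-07. In spleen it was -2.24 ± 0.13, a 4.74-fold fall with an adjusted p of 1.1e-06. Among all tested genes it was the 3rd most negative difference in bone marrow and the 7th most negative in spleen. Both calls held under each alternative that gave a value, with differences between -3.63 and -3.41 in bone marrow and between -2.27 and -2.22 in spleen. Within the first run alone the difference was -3.44 in bone marrow (3 KO arrays against 1 WT array) and -2.24 in spleen (1 against 2). Within the second run it was -2.23 in spleen (2 against 1).

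The Dgka fall was larger in bone marrow than in spleen in these arrays, but the test of that difference did not pass. KO bone marrow values near the filter also limit how the sizes of the falls compare. Subtracting the spleen effect from the bone marrow effect gave -1.24 ± 0.20 with an adjusted p of 0.084, the 7th smallest p of all genes. Only 1 gene, Slamf6, was called for this difference, which is 0.00836% of all tested genes, although 1092 genes had an unadjusted p under 0.05, where 598 would by chance. No member was called, with 2 (Dgka and Plcg2) at an unadjusted p under 0.05. Leaving out KO bone marrow array 2, the highest Dgka value of its group, gave -1.39 ± 0.16 with an adjusted p of 0.036. Between tissues, Dgka was lower in KO bone marrow than in KO spleen, with a log2 difference of -1.19 ± 0.14 (adjusted p 0.0042). It differed by 0.05 ± 0.13 between WT bone marrow and WT spleen (adjusted p 0.85). The call between the KO tissues was lost without KO spleen array 3 (-1.17 ± 0.20, adjusted p 0.10), the single KO spleen array of the first run. It was also lost within the first run alone (-1.21).

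The T cell gene Cd3d, a subunit of the CD3 complex that the sort selects against, was also lower in KO. Cd3d read 6.26, 6.78 and 6.49 in KO bone marrow, against 9.39, 9.30 and 9.32 in WT bone marrow. Its spleen values were 6.39, 5.71 and 7.11 in KO, against 7.83, 7.58 and 7.43 in WT. In WT cells Cd3d was higher in bone marrow than in spleen by 1.88 ± 0.23, and Dgka differed by 0.05. Cd3e and Cd3g were likewise lower in KO bone marrow than in WT bone marrow (-1.0 ± 0.24 and -1.69 ± 0.24). In spleen the differences of Cd3e and Cd3g, KO minus WT, were 0.55 ± 0.22 and 0.44 ± 0.22, and neither was called. Cd28, a costimulatory receptor, fell in both tissues, with differences of -1.28 ± 0.16 in bone marrow and -0.92 ± 0.14 in spleen. Of the 7 tested T cell markers, the other 3 (Cd8a, Cd5 and Cd6) were not called in bone marrow, where their KO and WT arrays overlapped. In spleen 5 of the 7 were not called. The part of T cell markers in the Dgka difference was not tested.

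**Figure D2:**
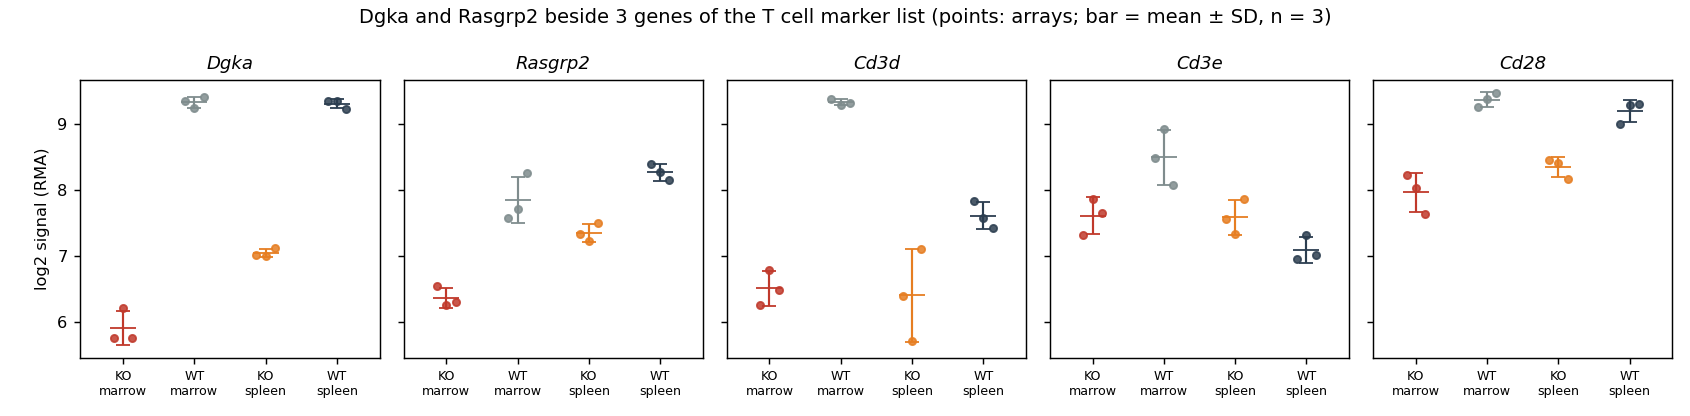
Log2 signal (vertical axis) of Dgka and Rasgrp2 beside Cd3d, Cd3e and Cd28 in each array; points are arrays and bars are means ± SD (n = 3). In WT cells Cd3d is higher in bone marrow than in spleen, and the Dgka arrays of both WT tissues overlap.

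The promoter of Dgka is shown because its transcript moved most. RefSeq for GRCm38.p6 gave 4 start windows for Dgka on the minus strand of chromosome 10, each taken as the 250 bases before a start. The window at the gene's outer edge is chr10:128745085-128745334, and the one farthest inside the gene is chr10:128737613-128737862. Windows were searched on both strands for the core letters of factor families that act in NK cells, TAAACA (forkhead), CCGGAA (ETS), ACCACA (RUNX) and GGTGTG (T-box). A single match was found in the 4 Dgka windows, a TAAACA that is in capitals below and begins 64 bases before the innermost start. That motif is in 12% of all 32851 windows, and a match is a description of letters, not a bound site.
Dgka outer window: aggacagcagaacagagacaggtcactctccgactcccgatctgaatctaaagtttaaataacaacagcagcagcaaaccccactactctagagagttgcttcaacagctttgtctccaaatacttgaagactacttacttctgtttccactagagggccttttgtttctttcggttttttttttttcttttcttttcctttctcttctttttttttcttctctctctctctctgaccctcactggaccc
Dgka inner window: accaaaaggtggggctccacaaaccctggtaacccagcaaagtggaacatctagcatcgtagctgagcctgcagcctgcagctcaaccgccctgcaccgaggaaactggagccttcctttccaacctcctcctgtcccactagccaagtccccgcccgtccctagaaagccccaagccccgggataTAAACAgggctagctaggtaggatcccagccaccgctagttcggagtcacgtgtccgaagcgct

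Windows were listed for 9 members, 16 in all. The forkhead letters were in 1 of the 16 and the ETS letters in 1, a Rasgrp2 window, against 12% of all windows for each. The T-box letters were in 2, of Rasgrp2 and Plcg1, against 16.3% of all windows, and the RUNX letters in 0, against 14%.

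The other diacylglycerol kinases differed less than Dgka. Dgkz, whose product is the zeta kinase, read 8.24, 8.10 and 8.15 in KO bone marrow, against 8.53, 8.70 and 8.55 in WT bone marrow, groups that did not overlap. Its difference there was -0.39 ± 0.13 with an adjusted p of 0.094, and it was called without the run term (-0.43, adjusted p 0.023). With bone marrow fitted alone, also without that term, the same -0.43 had an adjusted p of 0.035. In spleen Dgkz lay between 8.20 and 8.44 in KO and between 8.08 and 8.46 in WT, a difference of 0.02 ± 0.12 with a 95% interval of -0.24 to 0.28. The interval is narrow beside the Dgka fall in the same arrays. A second Dgkz probe set, with group means of 5.61 to 5.76 near the filter, differed by -0.09 in bone marrow and 0.05 in spleen.

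Dgkd, which encodes the delta kinase, lay between 7.73 and 8.13 in KO bone marrow and between 8.0 and 8.06 in WT bone marrow (difference -0.01 ± 0.15, adjusted p 0.99). In spleen it lay between 8.08 and 8.42 in KO and between 7.94 and 8.01 in WT (0.21 ± 0.13, adjusted p 0.42). The spleen groups did not overlap, with KO array 1 the highest of its group.

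Dgkh, which encodes the closely related eta kinase, ran opposite to Dgka. It read 6.91, 6.71 and 6.88 in KO bone marrow, against 6.23, 6.60 and 6.19 in WT bone marrow. Spleen arrays read 6.64, 7.22 and 6.87 in KO, against 6.65, 6.56 and 6.52 in WT, where KO array 1 fell within the WT range. Over both tissues it was higher in KO by 0.42 ± 0.11 (adjusted p 0.019), while the single-tissue differences of 0.53 ± 0.18 in bone marrow and 0.31 ± 0.16 in spleen were not called. The call over both tissues was lost without WT bone marrow array 1 (0.38 ± 0.13, adjusted p 0.079), the only WT bone marrow array of the first run. It was also lost within the first run alone (0.43). Leaving out KO spleen array 1 brought the bone marrow difference to 0.58 ± 0.15 with an adjusted p of 0.043, and dropping the run term gave 0.49 ± 0.15 with the same adjusted p.

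The RasGRP genes divided. Rasgrp2, which in blood cells acts mainly on Rap, the small GTPase that controls integrin adhesion, fell in both tissues. It read 6.54, 6.25 and 6.30 in KO bone marrow, against 7.58, 7.72 and 8.25 in WT bone marrow. In spleen it read 7.34, 7.23 and 7.50 in KO, against 8.40, 8.27 and 8.15 in WT. Neither tissue's groups overlapped, and KO bone marrow was the lowest of the 4 groups. The difference was -1.49 ± 0.19 in bone marrow (2.81-fold lower, adjusted p 0.00057) and -0.92 ± 0.17 in spleen (1.89-fold lower, adjusted p 0.0058). Within the first run, with 1 WT bone marrow array and 1 KO spleen array, the differences were -1.22 in bone marrow and -0.84 in spleen. Within the second run, with 1 WT spleen array, the difference was -0.87 in spleen. The spleen call was lost in each run taken alone.

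The KO bone marrow arrays of Rasgrp2 all lay below those of KO spleen, a difference of -0.99 ± 0.19 that was not called (adjusted p 0.066). It was called there in 5 of 21 alternatives, among them without WT bone marrow array 1 (-1.13, adjusted p 0.029) and without WT bone marrow array 3 (-1.07, adjusted p 0.0082). Between the WT tissues it differed by -0.42 ± 0.17 (adjusted p 0.18), with WT bone marrow array 3 inside the WT spleen range. Without that array the difference was -0.60 ± 0.13 and the adjusted p 0.030, and without WT bone marrow array 1 it was -0.15 ± 0.19 and 0.75.

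Rasgrp1, the main Ras activator of the family in T cells and NK cells, ran the other way in spleen. It read 9.92, 9.97 and 9.83 in KO spleen, against 9.57, 9.66 and 9.43 in WT spleen, with no overlap. The difference of 0.36 ± 0.10 had an adjusted p of 0.049, just under the threshold. The call was lost in 18 of 23 alternatives, including each of the 12 that left out an array (0.24 to 0.44, adjusted p 0.053 to 0.34). Leaving out a KO bone marrow array kept the difference at 0.36 and changed only its error and adjusted p. Within the first run, with 1 KO spleen array, the difference was 0.21. In bone marrow the KO arrays read 9.86, 9.99 and 10.03 and the WT arrays 9.88, 9.89 and 9.94, which overlap (0.05 ± 0.11, adjusted p 0.83). WT spleen was the lowest of the 4 groups, and WT bone marrow exceeded it by 0.35 ± 0.10 (adjusted p 0.068).

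**Figure D3:**
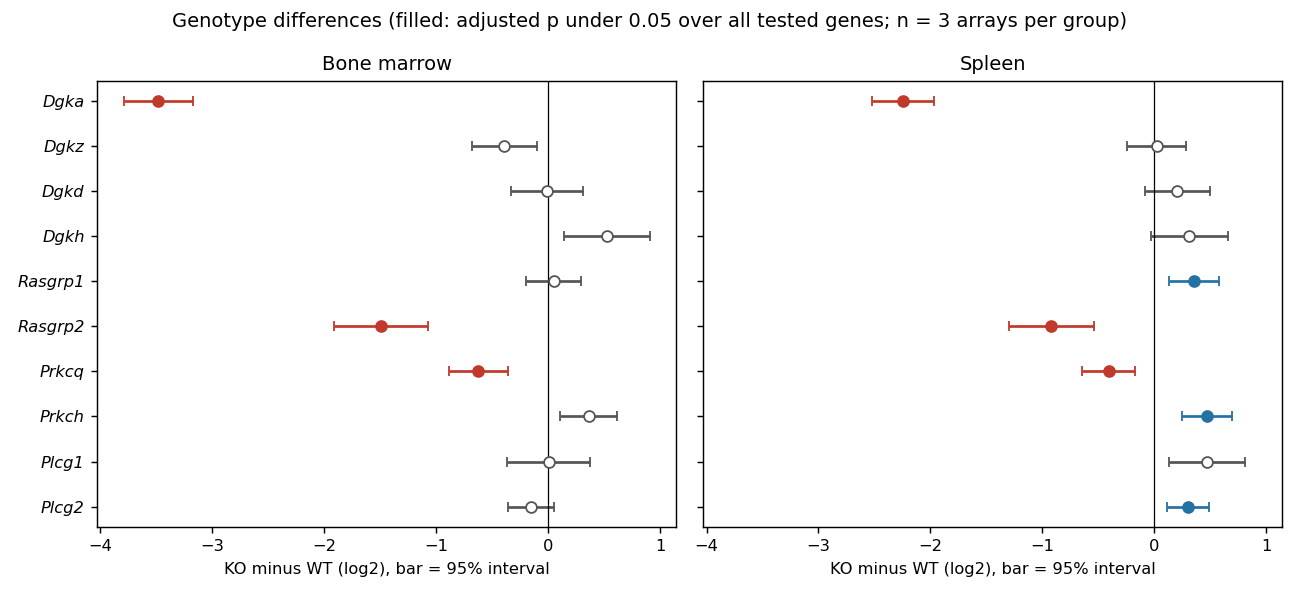
Difference between genotypes, KO minus WT in log2 units with its 95% interval (horizontal axis), for the 10 genes in bone marrow (left) and spleen (right); filled points were called, red for lower and blue for higher in KO. Dgka stands at -3.48 in bone marrow and -2.24 in spleen, and the other members lie between -1.49 and 0.53.

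The protein kinases C moved in opposite directions. Prkcq encodes the theta isoform, which links receptor signals to NF-kappaB in T cells. It read 9.83, 9.61 and 9.52 in KO bone marrow, against 10.29, 10.08 and 10.28 in WT bone marrow. The spleen arrays read 9.92, 9.94 and 9.91 in KO, against 10.42, 10.41 and 10.25 in WT. No KO array reached the WT range of its tissue. The difference was -0.62 ± 0.12 in bone marrow (1.54-fold lower, adjusted p 0.0085) and -0.41 ± 0.11 in spleen (1.33-fold lower, adjusted p 0.039). Over both tissues it was -0.51 ± 0.08 (adjusted p 0.00054). The bone marrow call was lost without WT bone marrow array 1, with a difference of -0.60 ± 0.17 and an adjusted p of 0.096. Genotype and run then coincided in bone marrow, so that loss cannot be assigned to the array's values. It was also lost within the first run alone, where 1 WT array made the difference -0.64. The spleen call was lost in 13 of 23 alternatives, and leaving out each of the 12 arrays in turn gave -0.46 to -0.34 with adjusted p from 0.028 to 0.22. It was lost on leaving out any 1 of the 6 spleen arrays, and on leaving out KO bone marrow array 2, WT bone marrow array 1 or WT bone marrow array 3.

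Prkch encodes the eta isoform, of the same class of protein kinases C that respond to diacylglycerol without calcium. It read 9.83, 9.92 and 9.69 in KO bone marrow, against 9.44, 9.41 and 9.44 in WT bone marrow. In spleen it read 9.98, 10.01 and 9.88 in KO, against 9.52, 9.59 and 9.37 in WT. All 6 KO arrays lay above all 6 WT arrays. The difference was 0.36 ± 0.12 in bone marrow (adjusted p 0.076), 0.47 ± 0.10 in spleen (adjusted p 0.014) and 0.42 ± 0.07 over both (adjusted p 0.0016). The bone marrow difference was called without the run term (0.38, adjusted p 0.020) and with trend and robust variance (0.36, adjusted p 0.043). Leaving out WT spleen array 3 gave 0.36 ± 0.13 in spleen with an adjusted p of 0.15, and averaging the gene's probe sets gave 0.48 ± 0.19 with the same adjusted p. The spleen call was also lost within either run alone, where 1 side was a single array and the differences were 0.32 and 0.62. Within the first run the call over both tissues was lost (0.35). The second Prkch probe set differed by 0.56 in bone marrow, where the groups did not overlap, and 0.58 in spleen, where they did.

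The phospholipases C gamma stand at the head of the pathway. Plcg2, the isoform that serves immune receptors in NK cells and B cells, varied little within groups. It read 7.52, 7.56 and 7.54 in KO bone marrow, against 7.71, 7.65 and 7.68 in WT bone marrow. In spleen it read 8.08, 8.12 and 8.08 in KO, against 7.83, 7.79 and 7.77 in WT. None of the 4 groups overlapped, with KO below WT in bone marrow and above WT in spleen. The difference was -0.15 ± 0.09 in bone marrow (adjusted p 0.35) and 0.30 ± 0.09 in spleen (adjusted p 0.047). The effects differed by -0.46 ± 0.14, bone marrow minus spleen, with an adjusted p of 0.35. The spleen call was lost in 19 of 23 alternatives, including each of the 12 that left out an array (0.29 to 0.33, adjusted p 0.059 to 0.19).

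Between tissues, Plcg2 was lower in KO bone marrow than in KO spleen, a difference of -0.57 ± 0.09 (adjusted p 0.030). With Dgka it made 2 members called for this comparison, both lower, against 0.318% of all tested genes called and 0.226% called lower. The KO tissues did not overlap for 4 members (Dgka, Rasgrp2, Prkcq and Plcg2), against 16.3% of all genes. Each of the 12 alternatives that left out an array lost the call (-0.60 to -0.55, adjusted p 0.053 to 0.22). Between WT bone marrow and WT spleen no member was called, against 5.37% of all tested genes, with 3 (Dgkz, Rasgrp1 and Rasgrp2) at an unadjusted p under 0.05, and Plcg2 differed by -0.11 ± 0.09. The WT tissues did not overlap for 3 members (Dgkz, Rasgrp1 and Plcg2), against 31.6% of all genes. For that comparison, too, the split of all genes moved with scaling: 519 were higher and 124 lower as deposited, 419 and 179 after quantile normalization, and 901 and 76 after median centring.

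Plcg1, the isoform that serves the T cell receptor, lay near the filter on low values. It ranged over 5.79 to 6.0 in KO bone marrow, 5.72 to 5.8 in WT bone marrow, 5.81 to 6.38 in KO spleen and 5.40 to 5.90 in WT spleen. The groups overlapped in both tissues. The difference was 0.01 ± 0.17 in bone marrow (adjusted p 0.99) and 0.47 ± 0.15 in spleen (adjusted p 0.083), and the spleen difference was called only without KO spleen array 2 (0.58 ± 0.15, adjusted p 0.045). Without KO spleen array 3 it was 0.28 ± 0.18 (adjusted p 0.46).

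The order of the 4 groups differed between members. Rasgrp2 and Prkcq were highest in WT spleen, then WT bone marrow, KO spleen and KO bone marrow, and only the WT groups overlapped. Dgka shared this order except that WT bone marrow stood at the top. Prkch and Dgkh were highest in KO spleen, then KO bone marrow, WT spleen and WT bone marrow, with overlap within each genotype and none between the lower KO group and the higher WT group. Over the 12 arrays the correlation of Dgka was 0.92 with Rasgrp2, 0.93 with Prkcq and -0.81 with Prkch, and that of Rasgrp2 with Prkcq was 0.94. These values describe arrays that fall into 4 groups and share their genotype difference.

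Around the members, 119 other genes of the pathway were listed by role, of which 106 were read by a probe set naming 1 symbol and 85 were tested. In bone marrow 7 were higher and 12 lower in KO, 22.4% of those tested, against 8.65% of all tested genes. In spleen 8 were higher and 10 lower, 21.2% against 9.11% of all genes. Over both tissues 12 were higher and 19 lower, 36.5% against 19.1% of all genes. These lists, too, were chosen with earlier results of these data known. The shares therefore describe the listed genes and are not evidence that the pathway is enriched. The median of all tested genes was -0.01 in each of these comparisons. For the difference of the effects between tissues 0 of 85 were called in limma, and 6 had an unadjusted p under 0.05.

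Among other enzymes that make or use diacylglycerol, Lpin1 had the most negative difference of the 85 genes over both tissues. Lpin1, a lipin that makes diacylglycerol from phosphatidic acid and so runs opposite to the diacylglycerol kinases, read 7.13, 6.82 and 6.94 in KO bone marrow, against 8.85, 8.44 and 8.48 in WT bone marrow. In spleen Lpin1 read 7.84, 7.74 and 7.90 in KO, against 9.03, 9.15 and 8.94 in WT. Its difference was -1.77 ± 0.13 in bone marrow (adjusted p 7.5e-06) and -1.14 ± 0.11 in spleen (adjusted p 7.4e-05). Of the 9 such enzymes tested, Lpin1 and Pld1 (-0.31 ± 0.09 over both tissues), a phospholipase D that makes phosphatidic acid, were lower and 7 were not called, with a list median of -0.10. The Pld1 call was lost in 11 of 21 alternatives, 8 of them without an array (-0.33 to -0.25). Pld1 differed by -0.46 in spleen (adjusted p 0.052) and by -0.15 in bone marrow (adjusted p 0.56).

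Among 4 other phospholipases C, which include the beta isoforms that couple to G proteins, 2 were lower and 1 higher over both tissues. Plcb4 was lower in both tissues, with differences of -1.58 ± 0.17 in bone marrow and -0.98 ± 0.15 in spleen. Those of Plcb2 were -0.99 ± 0.11 in bone marrow and -0.65 ± 0.10 in spleen. Plcb3 was higher by 0.38 ± 0.08 over both tissues, with differences of 0.54 in bone marrow (adjusted p 0.021) and 0.23 in spleen (adjusted p 0.26). Lpin1, Plcb4 and Plcb2 were also lower in KO bone marrow than in KO spleen, with differences of -1.01 ± 0.13, -0.93 ± 0.17 and -0.61 ± 0.11, and were the 3 of the 85 called for that comparison. Leaving out 1 array lowered that count to 0 without KO spleen array 3 and to 1, Lpin1, for 10 of the other 11 arrays. Of 6 further diacylglycerol kinases on the list, Dgke and Dgkq were tested and neither was called (-0.20 ± 0.10 and -0.17 ± 0.08 over both tissues).

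Of 6 other kinases that bind diacylglycerol, Prkcd and Prkce, which like Prkcq respond to the lipid without calcium, were lower over both tissues (-0.58 ± 0.09 and -0.54 ± 0.14) and 4 were not called. The Prkce call was lost without KO spleen array 1, WT spleen array 1 or WT bone marrow array 1 (-0.49 to -0.48, adjusted p 0.058 to 0.080). Prkce differed by -0.74 in spleen (adjusted p 0.044) and by -0.34 in bone marrow (adjusted p 0.39). Its mean signal, 5.64, was near the filter. Of 4 other effectors with a C1 domain, the fold that holds the lipid, 2 were higher and 2 not called. Chn2, a Rac-inactivating protein, read 9.86, 9.87 and 9.84 in KO bone marrow, against 8.70, 8.65 and 8.83 in WT bone marrow, and its difference was 1.14 ± 0.11 there and 1.18 ± 0.10 in spleen. Unc13a, a vesicle priming factor, was higher by 0.66 ± 0.09 over both tissues. Averaging the probe sets of Unc13a gave 0.27 ± 0.07 over both tissues (adjusted p 0.014), and 0.29 in bone marrow and 0.25 in spleen, neither of them called (adjusted p 0.13 and 0.14). Rasgrp4, a Ras activator of mast cells, was not called (-0.04 ± 0.08).

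Upstream of phospholipase C gamma, 1 of 17 tested genes was higher, 4 were lower and 12 were not called over both tissues, with a list median of -0.06. Cd247, the zeta chain that couples NK receptors to kinases, was lower, with a difference of -0.84 ± 0.08. Syk, a kinase at those chains, was lower as well (-0.62 ± 0.09), as was Hcst, the signalling adaptor of the NKG2D receptor (-0.38 ± 0.08). Sh3bp2, an adaptor that binds phospholipase C gamma, was higher by 0.66 ± 0.10.

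In the Ras to ERK cascade 5 of 17 tested genes were higher and 3 lower over both tissues, with a list median of 0.08. The genes with the largest differences included inhibitors of the cascade, which did not all go one way. Spred1, an inhibitor of Ras signalling, read 7.52, 7.40 and 7.60 in KO bone marrow, against 6.57, 6.70 and 6.52 in WT bone marrow, and was higher by 0.91 ± 0.13 there and by 1.5 ± 0.11 in spleen. Dusp6, a phosphatase of ERK whose transcription ERK induces, was higher in spleen by 1.40 ± 0.15 and differed by 0.38 ± 0.17 in bone marrow (adjusted p 0.19). The Dusp6 effects differed by -1.02 ± 0.24, bone marrow minus spleen, with an adjusted p of 0.24. Dusp6 and Spred1 were also higher in WT bone marrow than in WT spleen, the 2 of the 85 called for that comparison. Neither was called there without WT bone marrow array 1. Spred2 was higher by 0.80 ± 0.23 over both tissues, with differences of 1.2 in spleen (adjusted p 0.040) and 0.39 in bone marrow (adjusted p 0.54). Rasa3, a protein that inactivates Ras and Rap, was lower over both tissues (-0.98 ± 0.09). The Spred2 call was lost in 7 of 21 alternatives, 6 of them without an array (0.68 to 0.81, adjusted p 0.052 to 0.086). It was also lost on averaging the gene's probe sets (0.55 ± 0.18, adjusted p 0.052).

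Of 16 tested genes of the inositol trisphosphate and calcium branch, 6 were lower and 2 higher over both tissues, with a list median of -0.11. The NFAT factors Nfatc3 and Nfatc2 were lower (-0.81 ± 0.07 and -0.67 ± 0.08), as were the store-operated channel gene Orai2 (-0.48 ± 0.11) and the calcium sensor gene Stim2 (-0.41 ± 0.08). Orai2 lost its call without WT bone marrow array 1 (-0.41, adjusted p 0.056). Of 9 genes between protein kinase C and NF-kappaB, only Ikbkb, a kinase of the NF-kappaB inhibitor, was called (0.24 ± 0.08 over both tissues), and it was not called in either tissue alone. That call was lost in 16 of 21 alternatives, 11 of them without an array (0.20 to 0.26).

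**Figure D4:**
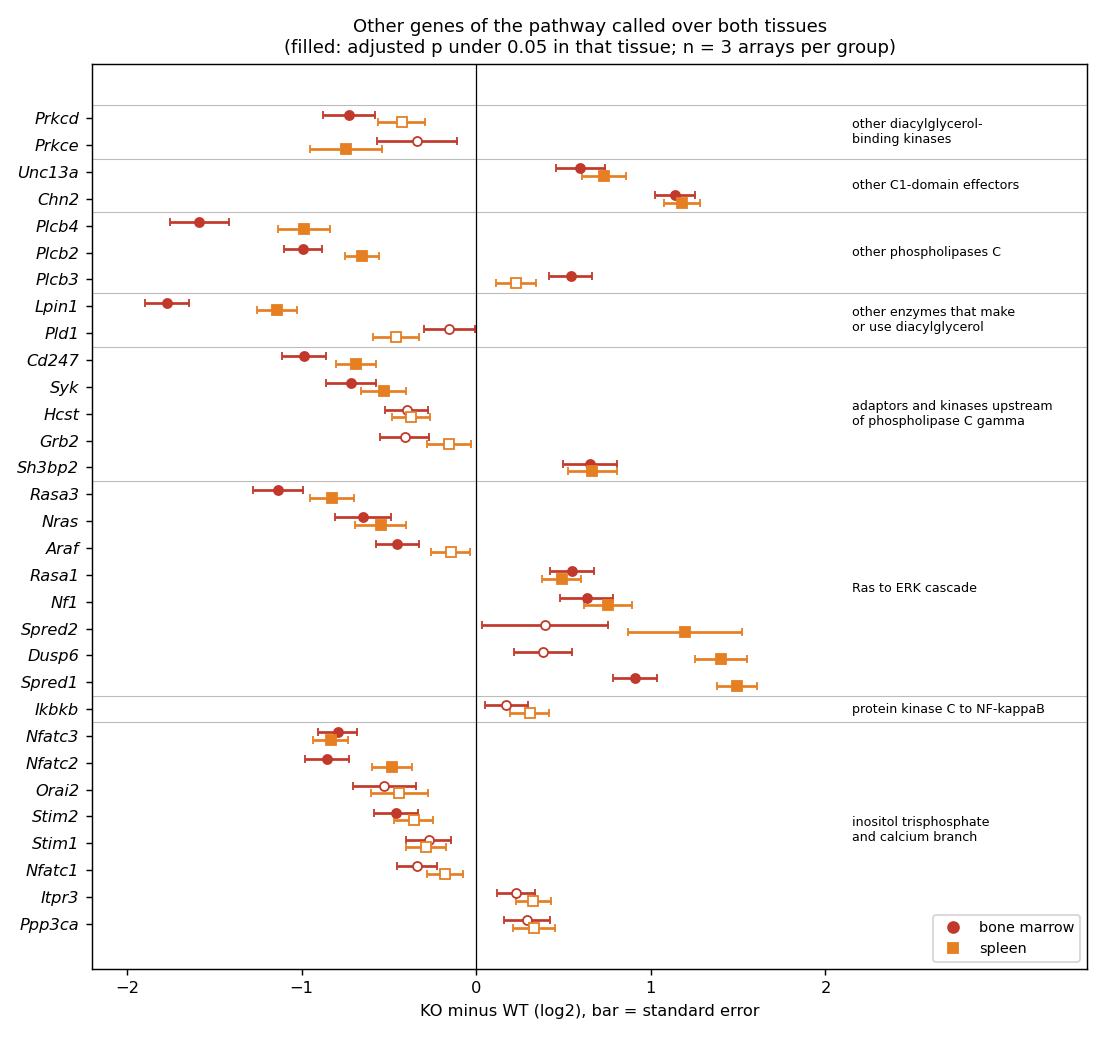
Difference between genotypes, KO minus WT in log2 units with its standard error (horizontal axis), of the 31 other pathway genes called over both tissues, grouped by role; circles are bone marrow, squares spleen, and filled marks were called in that tissue. Lpin1 and Plcb4 have the most negative differences in each tissue, and the most positive are Chn2 (1.14) and Spred1 (0.91) in bone marrow and Spred1 (1.5), Dusp6 (1.40) and Spred2 (1.2) in spleen.

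The tested genes whose levels followed a member most closely over the 12 arrays were named by Pearson correlation, as a description with no test. For Dgka they were Sidt1 (0.990), Cd44 (0.989) and S1pr1 (0.978). For Rasgrp2 they were Klf3 (0.979), Plcb2 (0.978) and Xdh (0.976), and for Prkcq they were Plcb4 (0.973), Lpin1 (0.968) and Rap1b (0.966). For Prkch they were Ro60 (0.976), Cyld (0.971) and Chn2 (0.964). For Rasgrp1 they were Cluap1 (0.931), Cops6 (0.926) and Mtarc2 (0.919), and for Dgkh they were Slc19a1 (0.919), Sbsn (0.914) and Svip (0.907). For Plcg2 they were Gpx8 (0.934), Slc44a2 (0.920) and Tcirg1 (0.905), and for Plcg1 they were Rell2 (0.906), Bcl11b (0.897) and Arhgef10l (0.885). The values were lowest for Dgkz, with Rbfa (0.871), Ftl1 (0.868) and Fbxl14 (0.866), and for Dgkd, with Ntn4 (0.852), Cul2 (0.808) and Ylpm1 (0.799).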

How the data were processed

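Per the submitters' processing notes, the authors made the deposited log2 values in Affymetrix Expression Console by RMA, a background correction, quantile normalization and probe summary. Neither software versions nor a genome build is stated there. Per the labels' protocols, Trizol-extracted RNA was amplified with the NuGEN Ovation PicoSL WTA V2 kit. No further normalization was applied. Of 35556 probe sets, 21789 had 1 symbol in the platform annotation, and the one with the highest mean was kept for each of 19938 genes. Genes whose mean signal exceeded the 40th percentile (5.49) were tested with limma 3.58.1 in R 4.3.3, in a model with 4 group means and the run of sample numbers (7 residual and 4.74 prior degrees of freedom). P-values are two-sided and Benjamini-Hochberg adjusted over all 11963 tested genes. The script was tested on simulated data.

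Array medians lay between 5.75 and 5.87. Arrays carry no read depth, so their number limits the precision, and an exact permutation test of 3 against 3 arrays cannot give a p under 0.1. The run is a run of consecutive numbers in the labels, and what it stands for is not stated there. Its own effect on the 10 genes was 0.15 or less, with an adjusted p of 1 for each. Samples of the same replicate number were compared by the correlation of their deviations from the group means, which was -0.02 to 0.24 over 18 pairs and over 0.1 in 6, so the numbers were not taken as pairs.

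The members and the gene lists were chosen with earlier results of these data known. The text names all 10 members, Mir142, up to 4 called genes of each pathway list with the largest difference over both tissues, and the 3 tested genes most correlated with each member, leaving out predicted and olfactory or vomeronasal receptor genes. Cd3d has the largest difference of its marker list, and the other markers and Slamf6 were named after their values were seen. Sequences are RefSeq's for GRCm38.p6, and promoters were matched for 9 members. Alternatives were the run term, a replicate block, normalization, the filter, the probe set rule, the variance model, each tissue or run alone, and leaving out each array. Fits of a tissue or run alone had no run term.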

Additional observations from a re-analysis of the deposited data

Results flagged for a closer look

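Plcg2 had KO arrays on opposite sides of WT in the tissues. All 3 KO arrays lay below all 3 WT arrays in bone marrow and above all 3 WT arrays in spleen. Subtracting the spleen effect from the bone marrow effect gave -0.46 ± 0.14 on the log2 scale, and the test of that difference had an adjusted p of 0.35 (limma, 3 arrays per group).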

How the results depend on the processing

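Of 60 differences of the 10 members recomputed under up to 23 alternatives (1294 values), 1196 stayed on their side of the threshold, 78 lost a call and 20 gained one. No called value changed sign. Each tissue alone gives no value across tissues, the second run allows only spleen and the WT tissues, and Plcg1 falls below the 60th percentile filter. Leaving out arrays limits every call near the threshold, since 3 arrays stand behind a group.

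In bone marrow, genes called rose to 1590 without the run term and fell to 342 within the first run, members called came to 6 without the run term, and pathway genes to 10 within the first run. In spleen, the first run alone called 242 genes, 1 member and 6 pathway genes, the second run 195, 1 and 3, and no filter left 3 members. Over both tissues the first run alone called 898 genes, 3 members and 18 pathway genes. The difference of the effects called 2 genes without the run term, 5 after median centring, 3 with trend and robust variance, 0 above the 60th percentile and 0 within the first run. Between the WT tissues median centring called 977 genes, the first run 1 and the second 8. There 1 member, Rasgrp1, was called without the run term, after median centring or with trend and robust variance, and pathway genes came to 4 without the run term and 0 within either run. Between the KO tissues the run term's removal called 87 genes, the first run alone 1 gene, 0 members and 0 pathway genes, another quantile normalization 1 member, and median centring or no filter 1 pathway gene.

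With the replicate number as a block, the difference of the effects called 5 genes and the KO tissues differed in 1 member (Dgka) and 1 pathway gene (Lpin1). Same-numbered samples correlated at -0.02 to 0.24.

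Leaving out each array in turn gave, for all genes, members and pathway genes, 371 to 1006, 2 to 4 and 10 to 20 called in bone marrow, and 546 to 1083, 2 to 4 and 10 to 19 in spleen. Over both tissues it gave 1675 to 2178, 4 to 5 and 23 to 32, and for the difference of the effects 0 to 5, 0 to 1 and 0. Between the WT tissues it gave 82 to 702, 0 to 1 and 0 to 4, and between the KO tissues 1 to 38, 0 to 2 and 0 to 3. The lowest counts of all genes came without WT bone marrow array 1 in bone marrow and between the WT tissues, without WT spleen array 3 in spleen, and without KO spleen array 3 between the KO tissues. Without WT bone marrow array 1, genotype and run coincide in bone marrow. Without KO spleen array 3, tissue and run coincide in KO.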
